A study of Bos taurus with 9 samples.

Results

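Triacylglycerol, the fat that fills a lipid droplet, is built on a backbone of glycerol 3-phosphate. Cells make this backbone by reducing dihydroxyacetone phosphate, which comes from glucose or, through phosphoenolpyruvate, from pyruvate and amino acids (glyceroneogenesis), or by phosphorylating free glycerol. In fat tissue of mammals phosphoenolpyruvate carboxykinase is known as the controlling enzyme of glyceroneogenesis, glycerol kinase is known to be scarce, and glycerol set free by lipolysis leaves the cell through aquaglyceroporins.

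The genes of this route were followed here under 8 symbols, chosen by name with earlier results of these data known. PCK1 and PCK2 encode the cytosolic and the mitochondrial phosphoenolpyruvate carboxykinase, GPD1 and its relative GPD1L the cytosolic glycerol-3-phosphate dehydrogenases, GPD2 the mitochondrial one, GK glycerol kinase, and AQP3 and AQP7 glycerol channels. The 8 symbols matched 9 of the 21512 rows of the expression table, because 2 rows carry the symbol GK (ncbi_505987 and ncbi_538702). RefSeq names the second of these LOC538702, and that name is used for it below. Whether reads were split between these GK rows was not tested, so the values of both are uncertain. The other rows are PCK1 (ncbi_282855), PCK2 (ncbi_282856), GPD1 (ncbi_525042), GPD1L (ncbi_514456), GPD2 (ncbi_504948), AQP3 (ncbi_780866) and AQP7 (ncbi_615498).

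The study asked how fibroblasts of the bovine ear change when a cocktail of small molecules turns them into cells with lipid droplets. CiADCs-3d and CiADCs-6d, the chemically induced adipocyte-like cells, were collected on days 3 and 6 of culture in N2B27 medium with 500 µg/mL VPA (a histone deacetylase inhibitor), 1 µM TTNPB (an agonist of retinoic acid receptors) and 10 µM RepSox (an inhibitor of the TGF-beta type I receptor). BEFs, labelled AnEFs-0d, were the untreated ear fibroblasts on day 0, and each of the 3 groups had 3 samples. Per the paper's methods, the ear fibroblasts were grown in DMEM with fetal bovine serum. Fibroblasts cultured equally long in plain medium were not part of the samples, so medium, compounds and time cannot be told apart, and the sources do not say whether samples came from separate animals or inductions. The p-values therefore measure the spread between these samples, which may be technical. The labels give neither breed nor age.

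Expected counts, which are estimated reads per gene, summed to between 18509244 and 24071580 per sample. Replicates differed by more than counting noise in every group, with a chi-square per degree of freedom of 13.35 to 50.33 among CiADCs-6d and 14.94 to 45.06 among CiADCs-3d, against 2.44 to 9.11 among BEFs. The sample numbered 1 stood apart on both induced days. The adipocyte label was checked on 14 markers, of which 7 lay under 1 FPKM (fragments scaled to gene length and library size) in CiADCs-6d and 8 in CiADCs-3d, against 11 in BEFs. Of the 11 markers with enough counts to test, 7 were higher and 2 lower than BEFs on day 6 (35.6% and 31.9% of all genes tested). On day 3, 5 were higher and 2 lower (30.9% and 29.1% of all genes tested). LPL (2.37-fold on day 6 and 5.18-fold on day 3) and PPARG (1.55-fold and 3.21-fold) were among the higher ones, and the lower ones were FABP4 (12.5-fold lower on day 6 and 2.05-fold on day 3) and CIDEC (19.9-fold and 6.03-fold). CD36 (2 counts in all in BEFs) had enough counts to test in the induced samples alone and could only be seen to rise. CIDEC had enough in BEFs alone and could only be seen to fall. LEP and RETN were at or near 0 throughout. The summed FPKM of the 14 was 16.1 to 16.8 in CiADCs-6d and 18.4 to 34.2 in CiADCs-3d, against 22 to 26.4 in BEFs. FABP4 alone made up most of that sum in BEFs, with a mean of 17.24 FPKM. Its mean was 8.58 FPKM in CiADCs-3d and 1.4 FPKM in CiADCs-6d, so the sum mostly follows this 1 gene.

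The induced cells had more mRNA of the mitochondrial carboxykinase PCK2, of the dehydrogenases GPD1 and GPD2, of glycerol kinase and of AQP3 than BEFs, and less of GPD1L, on both days. The largest difference in reads was that of PCK2, and the genes with the smallest levels, PCK1, AQP7 and LOC538702, were hardly read at all. Differences were tested on the counts with the quasi-likelihood test of edgeR over 14020 genes, and a gene passed at a Benjamini-Hochberg adjusted p under 0.05. Of the 9 rows, 6 had enough counts to be tested, and 5 were higher and 1 lower than BEFs on each day. Among all genes tested, 30.9% passed as higher and 29.1% as lower on day 3, and 35.6% and 31.9% on day 6, 60% and 67.5% in either direction. With a change of at least 2-fold in addition, 4 of the 6 were higher and 1 lower on each day, GPD1 being the one that stayed under 2-fold. The background for that rule was 18.2% higher and 9.94% lower on day 3 (28.1% in either direction), and 21.9% higher and 13.4% lower on day 6 (35.3% in either direction). The 6 had a median log2 fold change of 1.73 (day 6) and 1.56 (day 3), against 0.033 and 0.006 over all genes tested. AQP3 passed the filter on low counts through the induced samples alone and could therefore only be seen to rise.

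**Figure D1:**
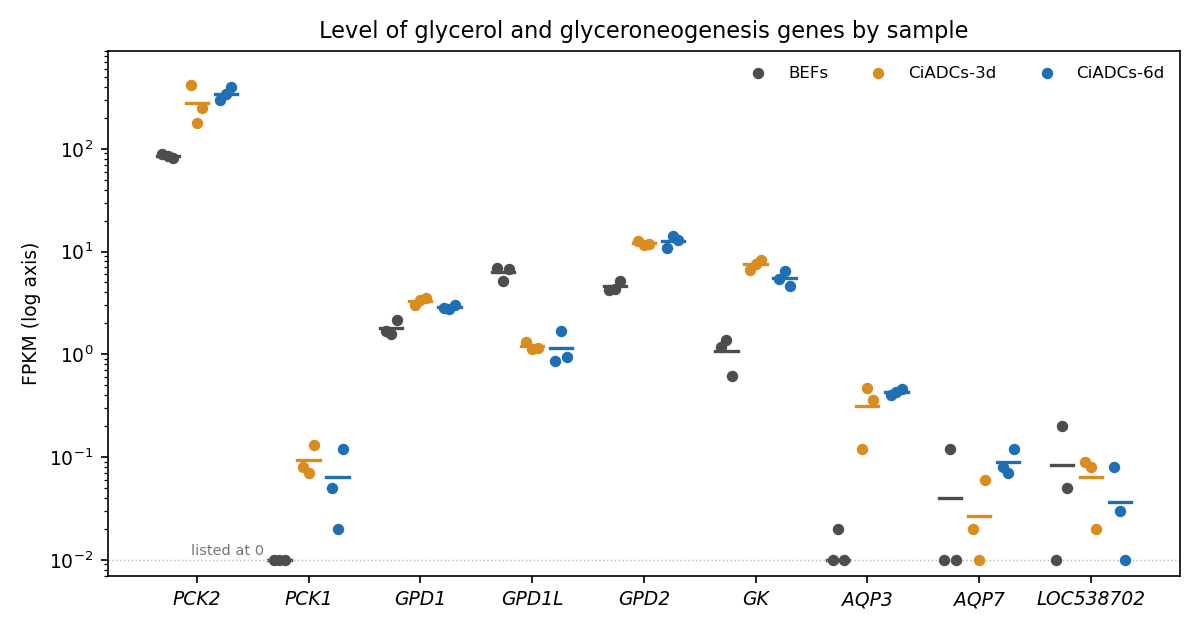
Level of each of the 9 rows in each of the 9 samples (FPKM, logarithmic axis, with rows at 0 drawn at the foot as listed at 0), as points by day with a bar at the group mean. PCK2 lies far above the other genes on all 3 days, GPD1L is lower on days 3 and 6 than on day 0, and PCK1, AQP7, LOC538702 and AQP3 stay under 0.5 FPKM in every sample.

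**Figure D2:**
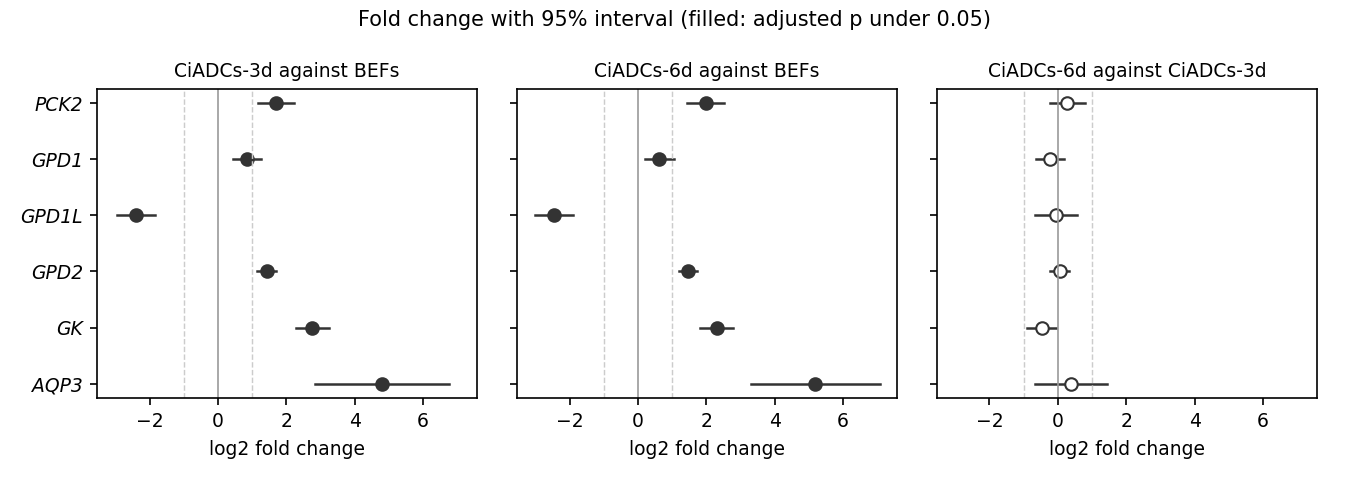
Log2 fold change of the 6 tested rows with 95% confidence intervals from edgeR for CiADCs-3d against BEFs, CiADCs-6d against BEFs and CiADCs-6d against CiADCs-3d, filled where the adjusted p was under 0.05 and with dashed lines at a 2-fold change. The intervals against BEFs lie on one side of 0 for all 6 rows, and between the 2 induced days only that of GK (-0.89 to -0.04) leaves out 0, with an adjusted p of 0.0968 from edgeR.

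Phosphoenolpyruvate carboxykinase turns oxaloacetate into phosphoenolpyruvate, the entry to glyceroneogenesis. PCK2, the mitochondrial form, was the most abundant of the 9 rows in every group. It had 89.74, 85.95 and 80.83 FPKM in BEFs, 421.68, 176.61 and 247.78 FPKM in CiADCs-3d, and 296.08, 342.39 and 395.30 FPKM in CiADCs-6d. All 6 induced samples lay above all BEFs, and CiADCs-3d replicate 1 was the highest sample of all. The difference from BEFs was 3.94-fold in CiADCs-6d (log2 fold change 1.98, standard error 0.24, edgeR adjusted p = 1.62e-05) and 3.24-fold in CiADCs-3d (1.70, standard error 0.24, edgeR adjusted p = 7.07e-05). Without CiADCs-3d replicate 1 the day 3 log2 fold change was 1.33. PCK2 made up 93.5%, 93.03% and 94.64% of the summed FPKM of the 9 rows in CiADCs-6d and 94.62%, 87.95% and 90.68% in CiADCs-3d, against 86.46%, 87.09% and 84.52% in BEFs.

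PCK1 encodes the cytosolic form, the one that is abundant in the fat tissue of rodents. It was listed at 0 in all BEFs, at 0.08, 0.07 and 0.13 FPKM in CiADCs-3d and at 0.05, 0.02 and 0.12 FPKM in CiADCs-6d. These values stand for a few reads, with counts of 4, 4 and 8 in CiADCs-3d and 3, 1 and 6 in CiADCs-6d. The summed counts were 10 in CiADCs-6d (95% Poisson interval 4.8 to 18.4) and 16 in CiADCs-3d (9.15 to 26), against 0 in BEFs. With BEFs set to a floor of 3 counts over the group, the summed counts scaled to library size gave a ratio of 3.7 for CiADCs-6d and 5.8 for CiADCs-3d. These ratios leave out the counting error of the induced samples and are not lower limits. The Poisson intervals cover counting error only. PCK1 was removed by the filter on low counts, and in the fit without that filter it passed on both days (edgeR adjusted p = 0.0161 on day 6 and 0.00649 on day 3). With 0 counts in BEFs it could only be seen to rise. In that fit 56.3% of all genes passed in either direction on day 6 and 48.4% on day 3. The level of PCK1 was a small part of the pair, PCK2 holding at least 99.95% of the FPKM of PCK1 and PCK2 together in every sample.

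A later step is the reduction of dihydroxyacetone phosphate to glycerol 3-phosphate, for which the cells can use GPD1 or GPD1L. GPD1 and PCK2 were among the adipocyte genes that the study also chose for qRT-PCR, and the paper reported both as upregulated in the induced cells. GPD1 had 1.69, 1.58 and 2.14 FPKM in BEFs, 3.02, 3.34 and 3.54 FPKM in CiADCs-3d, and 2.80, 2.78 and 3.04 FPKM in CiADCs-6d. The ranges of the induced samples and of BEFs did not overlap, but the rise was small at 1.55-fold in CiADCs-6d (log2 fold change 0.63, standard error 0.19, edgeR adjusted p = 0.0117) and 1.8-fold in CiADCs-3d (0.85, standard error 0.19, edgeR adjusted p = 0.00215). The counts behind it were 97, 96 and 92 in CiADCs-6d and 91, 113 and 136 in CiADCs-3d, against 60, 62 and 80 in BEFs. Without BEFs replicate 2 the day 6 difference did not pass (0.53, edgeR adjusted p = 0.0621). RefSeq places LOC104972400 over GPD1, and as the strand setting of the counting is not given in the sources used here, reads of the 2 genes cannot be told apart.

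GPD1L, known in humans also as a regulator of the cardiac sodium channel, moved the other way. It had 6.93, 5.11 and 6.77 FPKM in BEFs, 1.33, 1.12 and 1.16 FPKM in CiADCs-3d, and 0.86, 1.69 and 0.94 FPKM in CiADCs-6d. The highest induced sample, CiADCs-6d replicate 2, was at 1.69 FPKM and the lowest BEFs sample at 5.11 FPKM. GPD1L was 5.51-fold lower in CiADCs-6d (log2 fold change -2.46, standard error 0.26, edgeR adjusted p = 3.97e-06) and 5.29-fold lower in CiADCs-3d (-2.40, standard error 0.26, edgeR adjusted p = 6.11e-06). Scaling the libraries to ACTB, the reference gene of the study's qRT-PCR, in place of all genes moved the median of all genes up by 2.19 on day 6 and 1.68 on day 3 on the log2 scale, and GPD1L then did not pass (-0.22, edgeR adjusted p = 0.598, on day 6 and -0.72, edgeR adjusted p = 0.101, on day 3). ACTB itself had 948.9 to 1719 CPM (counts scaled to library size) in CiADCs-6d and 1351 to 2175 in CiADCs-3d, against 5393 to 5723 in BEFs.

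The pair changed places in these libraries. GPD1 held 76.5%, 62.19% and 76.38% of the summed FPKM of GPD1 and GPD1L in CiADCs-6d and 69.43%, 74.89% and 75.32% in CiADCs-3d, against 19.61%, 23.62% and 24.02% in BEFs. The share averaged 71.69% ± 8.227 in CiADCs-6d and 73.21% ± 3.285 in CiADCs-3d, against 22.41% ± 2.44 in BEFs (SD, n = 3 each), and the exact two-sided permutation test gave p = 0.1 on each day, the smallest that 3 against 3 samples allow (0.1444 after Benjamini-Hochberg adjustment over 13 tests of shares, sums and ratios). Their sum, a measure chosen after the values were seen, was 3.66, 4.47 and 3.98 FPKM in CiADCs-6d and 4.35, 4.46 and 4.70 FPKM in CiADCs-3d, against 8.62, 6.69 and 8.91 FPKM in BEFs. The summed cytosolic level was thus lower in every induced sample than in every BEFs sample, while GPD1 alone was higher (exact permutation p = 0.1 on each day, 0.1444 adjusted).

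GPD2 is the flavoprotein of the mitochondrial inner membrane that oxidises glycerol 3-phosphate back to dihydroxyacetone phosphate and passes the electrons to the respiratory chain. It had 4.24, 4.32 and 5.22 FPKM in BEFs, 12.72, 11.50 and 11.92 FPKM in CiADCs-3d, and 10.94, 14.13 and 13.06 FPKM in CiADCs-6d. The lowest induced sample had 10.94 FPKM and the highest BEFs sample 5.22 FPKM, with a 2.76-fold difference in CiADCs-6d (log2 fold change 1.47, standard error 0.13, edgeR adjusted p = 8.06e-07) and 2.67-fold in CiADCs-3d (1.42, standard error 0.13, edgeR adjusted p = 1.38e-06). Its ratio to the summed cytosolic pair, also chosen after the values were seen, was 2.99, 3.16 and 3.28 in CiADCs-6d and 2.92, 2.58 and 2.54 in CiADCs-3d, against 0.49, 0.65 and 0.59 in BEFs. The cytosolic pair therefore exceeded GPD2 in FPKM in every BEFs sample, and GPD2 exceeded the pair in every induced sample (exact permutation p = 0.1 for each day, 0.1444 adjusted).

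RefSeq places NR4A2, an orphan nuclear receptor gene, over GPD2. NR4A2 had 12.79, 17.05 and 15.45 FPKM in CiADCs-6d and 14.07, 9.29 and 18.07 FPKM in CiADCs-3d, against 3.16, 3.75 and 8.25 FPKM in BEFs (log2 fold change 1.52, edgeR adjusted p = 0.00099, on day 6 and 1.5, edgeR adjusted p = 0.00135, on day 3). It moved in the same direction as GPD2, and its part in the GPD2 counts was not tested.

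**Figure D3:**
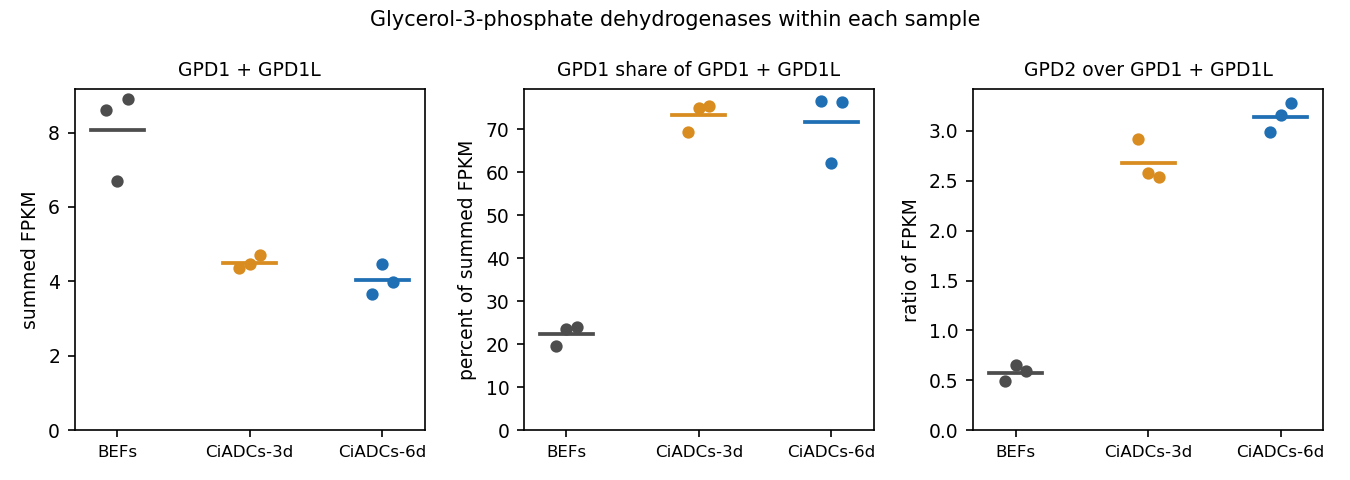
Summed FPKM of GPD1 and GPD1L, the GPD1 share of that sum (percent) and the ratio of GPD2 to it, as points for the 3 samples of each day with a bar at the mean. The GPD1 share is 62.19% or more in every induced sample and 24.02% or less in every BEFs sample, the sum is lower in every induced sample, and the GPD2 ratio is at least 2.54 in the induced samples and at most 0.65 in BEFs.

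Glycerol kinase makes glycerol 3-phosphate directly from glycerol. The row GK had 1.19, 1.39 and 0.62 FPKM in BEFs, 6.58, 7.62 and 8.28 FPKM in CiADCs-3d, and 5.37, 6.51 and 4.66 FPKM in CiADCs-6d. Among the 6 tested rows its rise was second to that of AQP3, at 4.93-fold in CiADCs-6d (log2 fold change 2.30, standard error 0.22, edgeR adjusted p = 1.83e-06) and 6.79-fold in CiADCs-3d (2.76, standard error 0.22, edgeR adjusted p = 4.7e-07). Its counts were 264, 319 and 208 in CiADCs-6d and 286, 374 and 447 in CiADCs-3d, against 62, 76 and 37 in BEFs. LOC538702, the other row with that symbol, had summed counts of 4 in CiADCs-6d and 7 in CiADCs-3d, against 11 in BEFs. These few counts gave a ratio to BEFs of 0.4 on day 6 (95% counting interval 0.09 to 1.3) and 0.69 on day 3 (0.23 to 1.9), so no difference was detectable at this depth.

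The aquaglyceroporins let glycerol across the plasma membrane. AQP3, known best from the skin and kidney, had 0, 0.02 and 0 FPKM in BEFs, 0.12, 0.47 and 0.36 FPKM in CiADCs-3d, and 0.40, 0.43 and 0.46 FPKM in CiADCs-6d. It remained a weakly expressed gene, with counts of 15, 16 and 15 in CiADCs-6d and 4, 17 and 15 in CiADCs-3d, against 0, 1 and 0 in BEFs. The ratio of summed counts, scaled to library size, was 50.39 on day 6 (95% counting interval 8.6 to 2032.9) and 38.89 on day 3 (6.55 to 1578). The edgeR test passed on both days (adjusted p = 0.000189 on day 6 and 0.000587 on day 3), but the fold rests on the single read of BEFs replicate 2. The fitted log2 fold change of AQP3 was 5.19 on day 6 and 4.8 on day 3, and without that library 6.98 and 6.59.

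AQP7, the channel of adipocytes, stayed near the limit of detection. It had 0, 0.12 and 0 FPKM in BEFs, 0.02, 0 and 0.06 FPKM in CiADCs-3d, and 0.08, 0.07 and 0.12 FPKM in CiADCs-6d. Its summed counts were 14 in CiADCs-6d (95% Poisson interval 7.65 to 23.5) and 3 in CiADCs-3d (0.62 to 8.8), against 4 in BEFs (1.09 to 10.2), where all 4 came from replicate 2. The ratio of counts was 3.83 for CiADCs-6d to BEFs (95% counting interval 1.2 to 16) and 4.73 for CiADCs-6d to CiADCs-3d (1.32 to 25.7), but the edgeR fit without a filter, which takes the spread between samples into account, did not pass (adjusted p = 0.157 for day 6 against BEFs, 0.916 for day 3 against BEFs and 0.2 between the days). AQP7 held 16.67%, 14% and 20.69% of the summed FPKM of AQP3 and AQP7 in CiADCs-6d, against 14.29%, 0% and 14.29% in CiADCs-3d. RefSeq annotates AQP3 and AQP7 next to each other on one chromosome with 0 genes between them, yet only AQP3 passed the test, and whether the pair differed from each other was not tested.

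The order of the levels differed between BEFs and the induced cells. In BEFs, PCK2 was followed by GPD1L, GPD2, GPD1 and GK, and only GPD1L and GPD2 had overlapping ranges among these neighbours. In CiADCs-3d and in CiADCs-6d the order was PCK2, GPD2, GK, GPD1, GPD1L and AQP3, with no overlap between neighbours. GPD1L thus stood next to PCK2 on day 0 and below GPD1 on days 3 and 6. PCK1, AQP7 and LOC538702 were at the end on each day with ranges that overlapped, joined by AQP3 in BEFs, and the range of AQP3 also reached into that of PCK1 in CiADCs-3d.

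All 6 tested rows had no overlap between induced samples and BEFs on either day, as had 72.7% of all genes tested on day 6 and 70.5% on day 3. The comparisons with BEFs share the BEFs samples. Between CiADCs-6d and CiADCs-3d, 0 of the 6 passed, against 28% of all genes tested (14.4% higher and 13.6% lower), and with a 2-fold change in addition also 0, against 7.31% of all genes (4.09% higher and 3.22% lower). At an unadjusted p under 0.05 the edgeR test gave 1 of the 6, GK, against 40.8% of all genes tested, and DESeq2 and limma also gave 0 after adjustment. The log2 differences of CiADCs-6d from CiADCs-3d were 0.05 for GPD2 (95% interval -0.22 to 0.32), -0.06 for GPD1L (-0.68 to 0.56), -0.22 for GPD1 (-0.63 to 0.19) and 0.39 for AQP3 (-0.67 to 1.45). A change of more than 1 on the log2 scale lies outside the intervals of GPD1, GPD1L and GPD2 and inside that of AQP3. The paper describes GPD1 as higher in CiADCs-3d and PCK2 as a later marker, more strongly raised in CiADCs-6d. With all libraries, neither gene passed between the days here.

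GK and PCK2 depended on single libraries in that comparison. GK was lower in every CiADCs-6d sample than in every CiADCs-3d sample, with a log2 difference of -0.46 (95% interval -0.89 to -0.04, edgeR adjusted p = 0.0968), and the adjusted p was 0.0438 without BEFs replicate 3 and 0.045 without CiADCs-3d replicate 1. PCK2 differed by 0.28 (-0.23 to 0.79, edgeR adjusted p = 0.394), and by 0.63 (edgeR adjusted p = 0.0103) without CiADCs-3d replicate 1. With the libraries numbered 1 left out on both induced days, an alternative added after the data were seen, both passed, PCK2 as higher (0.73, edgeR adjusted p = 0.000617) and GK as lower (-0.57, edgeR adjusted p = 0.0266) in CiADCs-6d. In that setting 48.8% of all genes passed between the days, so 2 of 6 members is no more than the background. Leaving out these libraries did not change the counts against BEFs, with 5 higher and 1 lower of 6 on each day. Of all genes in that setting, 73.3% passed in either direction against BEFs on day 6 and 65.3% on day 3.

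PCK2 is a known target of the amino acid response factor ATF4 in humans and mice, together with the enzymes of serine synthesis. All 13 genes of a list of serine synthesis and ATF4 response genes were tested, and 5 were higher and 1 lower than BEFs in CiADCs-6d and 1 higher and 4 lower in CiADCs-3d. Their median log2 fold change was -0.17 on day 6 and -0.61 on day 3. The background among all genes tested was 35.6% higher and 31.9% lower on day 6, and 30.9% and 29.1% on day 3. ATF4 itself had 538.35, 473.53 and 447.91 FPKM in CiADCs-6d and 404.98, 385.35 and 352 FPKM in CiADCs-3d, against 331.77, 336.38 and 311.07 FPKM in BEFs, and passed on day 6 (log2 fold change 0.54) and not on day 3 (0.20, edgeR adjusted p = 0.0942). DDIT3, a stress-induced transcription factor, was higher on both days (2.06 on day 6 and 0.83 on day 3). PHGDH, the first enzyme of serine synthesis, was lower on day 3 (-1.20) and did not pass on day 6 (-0.29). MTHFD2, of mitochondrial folate metabolism, was lower on both days (-0.62 on day 6 and -1.16 on day 3). VLDLR, a lipoprotein receptor, was higher on day 6 (0.63) and did not pass on day 3 (-0.02).

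CiADCs-3d replicate 1, the library highest for PCK2, was also the highest of its group for 13 of these 13 genes. PHGDH had 229.35 FPKM in it and 73.33 and 104.92 FPKM in replicates 2 and 3, against 316.68, 305.43 and 298.11 FPKM in BEFs. In CiADCs-6d PHGDH had 280.36, 226.4 and 262.3 FPKM. PHGDH was below all BEFs samples in all 6 induced samples, though it did not pass on day 6, and PCK2 was above them in all 6. No overlap with BEFs was seen for 72.7% of all genes tested on day 6 and 70.5% on day 3. With the libraries numbered 1 left out on both days, the list had 6 higher and 7 lower on day 6, 1 higher and 10 lower on day 3, and 12 higher in CiADCs-6d than in CiADCs-3d, against 6 with all libraries. Of all genes in that setting, 37.5% passed as higher and 35.8% as lower than BEFs on day 6, and 33.7% and 31.7% on day 3. The share of all genes higher in CiADCs-6d than in CiADCs-3d was also larger in that setting, at 22.8% against 14.4%. The part of that library's state in the PCK2 values was not tested.

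**Figure D4:**
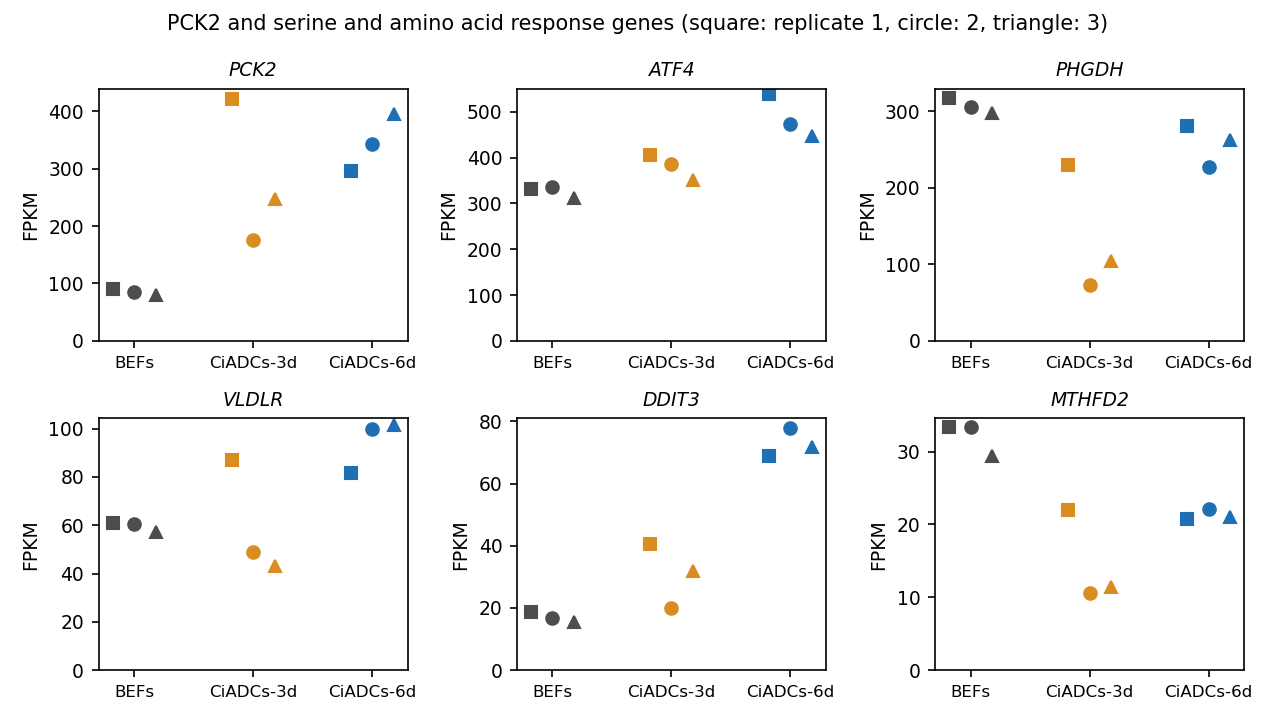
FPKM (linear axis from 0) of PCK2 and of the 5 named genes of the serine and amino acid response list, ATF4, PHGDH, VLDLR, DDIT3 and MTHFD2, with BEFs, CiADCs-3d and CiADCs-6d from left to right and replicates 1, 2 and 3 as square, circle and triangle. CiADCs-3d replicate 1 is the highest of its group in each panel, and the induced samples of PCK2, ATF4 and DDIT3 all lie above BEFs.

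The genes that supply or use the same intermediates were taken from lists written from textbook knowledge, with earlier results of these data known. Of all genes tested, 35.6% passed as higher and 31.9% as lower than BEFs on day 6, and 30.9% and 29.1% on day 3. These shares are the background for the counts of the lists that follow. Of 9 genes that use glycerol 3-phosphate or bypass it, counted together with GK5 of the glycerol kinase family, 8 were tested. In CiADCs-6d, 4 of them were higher and 3 lower than in BEFs, and in CiADCs-3d 5 and 3, with median log2 fold changes of 0.36 and 0.58. GPAT3, an acyltransferase that puts the first fatty acid on glycerol 3-phosphate, had 63.53, 65.92 and 61.94 FPKM in CiADCs-6d and 104.27, 41.79 and 53.54 FPKM in CiADCs-3d, against 2.13, 3.21 and 1.95 FPKM in BEFs. It was 26.9-fold higher on day 6 (log2 fold change 4.75, standard error 0.32, edgeR adjusted p = 7.41e-08) and 28.9-fold higher on day 3 (4.85, standard error 0.32, edgeR adjusted p = 8.13e-08), with its highest value in the library that was highest for PCK2. GPAT4, a related acyltransferase, rose by log2 0.41 and 0.38, and TKFC, which phosphorylates dihydroxyacetone, by 0.53 and 0.77, on days 6 and 3. PGP, a phosphatase that can hydrolyse glycerol 3-phosphate, was lower (-1.02 on day 6 and -0.98 on day 3). GK5 was higher (1.70 on day 6, edgeR adjusted p = 3.95e-06, and 1.93 on day 3, edgeR adjusted p = 1.66e-06).

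A list of 6 genes on the release of glycerol from acylglycerols held lipases and regulators of lipases. Of these, 4 were higher and 0 lower than BEFs on each day, with a median log2 fold change of 0.92 (day 6) and 1.10 (day 3). The 2 that did not pass were the lipase LIPE (0.06, edgeR adjusted p = 0.802, on day 6 and 0.32, edgeR adjusted p = 0.184, on day 3) and ABHD5 (-0.19 and -0.25). PNPLA2, the adipose triglyceride lipase, had 34.45, 44.5 and 52.1 FPKM in CiADCs-6d and 40.43, 32.63 and 32.79 FPKM in CiADCs-3d, against 8.46, 8.21 and 7.05 FPKM in BEFs. It was 5.37-fold higher on day 6 (log2 fold change 2.43, edgeR adjusted p = 6.59e-08) and 4.4-fold higher on day 3 (2.14, edgeR adjusted p = 2.44e-07). G0S2, an inhibitor of that lipase, was higher as well (1.07 on day 6 and 1.68 on day 3), as was ABHD6, a monoacylglycerol lipase (0.76 and 0.52). MGLL, the lipase of the last step, passed (2.79 and 1.71) at a level of at most 0.5 FPKM in any sample, with 11 counts in all in BEFs. It passed the filter on low counts through the induced samples alone, so it could only be seen to rise.

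Upstream, 17 genes of oxaloacetate supply and pyruvate fate were tested. In CiADCs-6d, 6 were higher and 9 lower than in BEFs, and in CiADCs-3d 5 and 8, the medians being -0.31 and -0.21. PC, pyruvate carboxylase, which makes the oxaloacetate that PCK2 uses, had 82.9, 72.16 and 83.55 FPKM in CiADCs-6d and 52.92, 61.46 and 58.23 FPKM in CiADCs-3d, against 27.41, 27.77 and 32.18 FPKM in BEFs. Its log2 fold change was 1.42 on day 6 (edgeR adjusted p = 4.08e-07) and 0.97 on day 3 (edgeR adjusted p = 1.42e-05). SLC25A10, the dicarboxylate carrier of mitochondria, rose by 1.84 and 1.95 on days 6 and 3, and PDK4, a kinase that inhibits pyruvate dehydrogenase, by 4.28 and 4.62. PDK1, of the same kinase family, was lower (-1.87 and -1.86), and MDH2, the mitochondrial malate dehydrogenase, was lower by a small amount (-0.42 and -0.37).

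Of 14 genes between the trioses and pyruvate, 13 were tested. In CiADCs-6d, 3 were higher and 9 lower than in BEFs, and in CiADCs-3d 4 and 8, the medians being -0.84 and -0.95. PKM, pyruvate kinase, was lower (-1.30 on day 6 and -1.06 on day 3), as were GAPDH, glyceraldehyde-3-phosphate dehydrogenase (-1.32 and -0.95), and the enolases ENO1 (-1.99 and -1.57) and ENO3 (-4.31 and -3.11), which make phosphoenolpyruvate in glycolysis. The third enolase, ENO2, named after its values were seen, was higher (2.19 on day 6, edgeR adjusted p = 3.02e-07, and 0.66 on day 3, edgeR adjusted p = 0.00603), with 8.79, 11.3 and 11.32 FPKM in CiADCs-6d and 4.04, 3.78 and 2.92 FPKM in CiADCs-3d, against 2.17, 2.1 and 2.51 FPKM in BEFs. ENO3 had 11.23, 10.82 and 12.2 FPKM in CiADCs-6d and 21.94, 25.63 and 31.28 FPKM in CiADCs-3d, against 227.36, 225.29 and 226.47 FPKM in BEFs. FBP2, a fructose bisphosphatase, passed as higher on both days, at 4.79, 4.34 and 3.48 FPKM in CiADCs-6d and 5.19, 5.22 and 6.9 FPKM in CiADCs-3d, against 0.04, 0.03 and 0 FPKM in BEFs. With 2 counts in all in BEFs it passed the filter through the induced samples alone and could likewise only be seen to rise. Levels of PCK2 and PC were thus higher while the median of the listed triose and phosphoglycerate genes was lower in the same libraries.

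Of 11 other aquaporin genes, 3 were tested. AQP1, a water channel, had 2.72, 3.56 and 3.45 FPKM in CiADCs-6d and 11.99, 3.69 and 5.81 FPKM in CiADCs-3d, against 50.46, 50.56 and 53.46 FPKM in BEFs, and was lower on both days (-4.03 and -2.88). AQP11 passed as higher on day 6 (1.52, edgeR adjusted p = 0.009) and not on day 3 (0.36). AQP5 had log2 fold changes of -1.38 and -1.34 that did not pass.

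**Figure D5:**
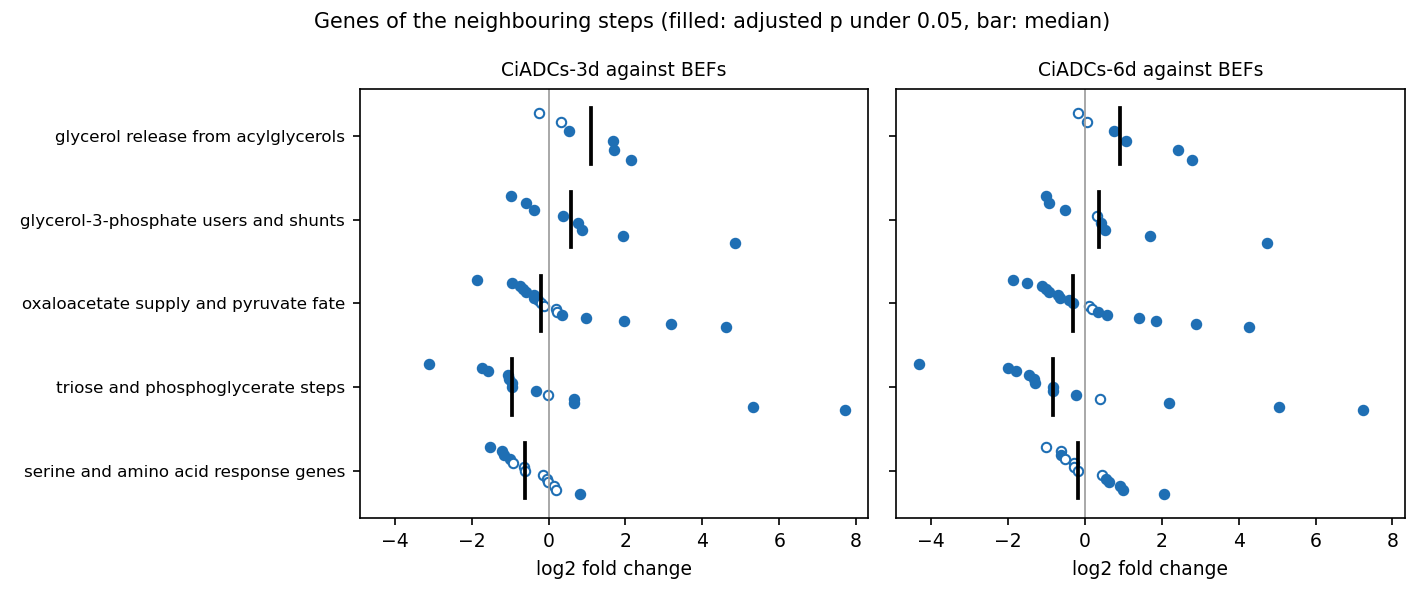
Log2 fold changes from edgeR of the tested genes of 5 lists around the 9 rows, for CiADCs-3d against BEFs (left) and CiADCs-6d against BEFs (right), as points filled where the adjusted p was under 0.05, with a bar at the list's median. The list on glycerol release, which includes the lipase inhibitor G0S2, has a median of 1.10 on day 3 and 0.92 on day 6. The list of the triose and phosphoglycerate steps has -0.95 and -0.84.

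Markers of other cells moved with the same groups. The background for the marker counts was 35.6% of all genes higher and 31.9% lower on day 6, and 30.9% and 29.1% on day 3. The 12 fibroblast markers summed to 7660 to 9260 FPKM in CiADCs-6d and 11700 to 15400 in CiADCs-3d, against 20200 to 20700 in BEFs, with 1 higher and 7 lower on day 6 and 4 higher and 5 lower on day 3. COL1A1, a chain of type I collagen, was lower on both days (-3.0 on day 6 and -1.84 on day 3), and COL3A1 did not pass (-0.24 and 0.21). In these bulk libraries fewer cells of a type and less RNA per cell cannot be told apart.

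Keratinocyte markers, given because AQP3 is a gene of the epidermis, summed to 45.5 to 51.1 FPKM in CiADCs-6d and 44.2 to 53.4 in CiADCs-3d, against 28.2 to 40.1 in BEFs. Of 9 tested, 4 were higher and 1 lower on day 6 and 4 higher and 4 lower on day 3. KRT1 and KRT15 passed the filter on low counts through the induced samples alone and could only be seen to rise. TP63 (2.79 on day 6 and 3.02 on day 3) and CDH1 (1.03 and 1.6) were higher on both days. KRT5 was lower on day 3 (-1.04) and did not pass on day 6 (0.04). Hepatocyte and renal tubule markers, of tissues known for PCK1 and GK, summed to 7.69 to 10.3 FPKM in CiADCs-6d and 19.2 to 22.9 in CiADCs-3d, against 45.5 to 52.5 in BEFs. Of 3 tested, 1 was higher (SLC5A2, 0.72 and 0.88) and 2 were lower on each day, APOA1 holding most of the sum (-3.03 and -1.42), and ALB was near 0.

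Macrophage and leukocyte markers summed to 44.2 to 55.3 FPKM in CiADCs-6d and 27.5 to 29.5 in CiADCs-3d, against 0.83 to 1.23 in BEFs. All 4 tested were higher on each day, with CD14 (6.56 and 6.01) making up most of the sum. Of these, CD163 (5 counts in all in BEFs) and CSF1R (8 counts) passed the filter through the induced samples alone and could only be seen to rise. The leukocyte gene PTPRC was at 0 in all samples. Endothelial markers summed to 23.6 to 37.5 FPKM in CiADCs-6d and 36.6 to 52.4 in CiADCs-3d, against 2.29 to 3.38 in BEFs. Of 3 tested, 1 was higher and 1 lower on day 6 and 2 were higher on day 3. VWF (4.98 and 5.57) held most of the sum in the induced samples. PECAM1 was the lower one on day 6 (-0.76) and did not pass on day 3 (-0.66). TEK passed on day 3 (1.08) and not on day 6 (0.67). CDH5, CLDN5 and EMCN were near 0. Cartilage markers summed to 11.7 to 14.5 FPKM in CiADCs-6d and 14.7 to 17.1 in CiADCs-3d, against 48.2 to 49.5 in BEFs. Most of that sum in BEFs was ACAN (-3.50 and -3.06), while 3 of 6 tested, COL2A1 (1.51 and 1.82) among them, were higher and 2 lower on each day, with a median of 0.96 and 1.21. MATN3, also among the higher ones, had 6 counts in all in BEFs. It passed the filter through the induced samples alone and could only be seen to rise. The part of these marker genes in the values above was not tested.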

How the data were processed

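Total RNA of 9 samples was sequenced by the authors after enrichment of mRNA with oligo(dT), per the paper's methods, while the labels name Ribo-Zero. RSEM, StringTie 1.3.1, HISAT2 2.2.4 and fastp 0.18.0 are listed in the submitters' processing notes with no role given, whereas TopHat and HTSeq stand in the published methods. The genome build and the strand setting are not given in the sources used here. The table deposited by the authors holds expected counts per gene and sample, which are estimated and not normalized, and FPKM values that the authors scaled to gene length and library size. Every per-sample column was used.

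Groups were taken from the labels. Expected counts were rounded to whole numbers and scaled by TMM, and filterByExpr of edgeR 4.0.16 (minimum count 10, minimum total 15) left 14020 and removed 7492 of 21512. All 9 samples entered one quasi-likelihood fit with no replicate block. The threshold was a Benjamini-Hochberg adjusted p of 0.05, and the 2-fold rule asked in addition for a log2 fold change of at least 1 or at most -1. The standard error was taken as log2 fold change over the root of the F statistic. Shares and ratios of FPKM were tested by exact two-sided permutation. Summed counts have 95% Poisson intervals and their ratios conditional binomial ones. CPM, counts scaled to library size and computed from the deposited counts, was used for ACTB, for ranking genes and, as log2 CPM with a prior count of 2, for likeness. Symbols were matched to RefSeq ARS-UCD2.0 by NCBI Gene ID (20582 of 21039 IDs), which was used for names, overlaps and neighbours only. The pipeline was tested on simulated data.

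The genes named are the members, of each pathway list the 3 with the highest mean CPM and the highest and lowest log2 fold change on day 6 among those past the test, of each marker list the 2 with the highest mean CPM, and for each tested member the 2 genes most like it. The other marker genes, ENO2, LIPE, ABHD5 and GK5 were named after their values were seen. The members, lists and tests were chosen with earlier results of these data known. Alternatives were DESeq2 1.42.0, limma 3.58.1 on log2(FPKM + 1) and log2(FPKM + 0.1), 4 other scalings, 2 other filters, only the 2 groups compared, a replicate block and the omission of single samples. The joint omission of both CiADCs libraries with number 1 was added after the data were seen. R 4.3.3 and Python 3.11.15 with matplotlib 3.10.9 were used with 1 thread and a seed of 1.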

Additional observations from a re-analysis of the deposited data

Results flagged for a closer look

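The effect of induction differed between the days for 0 of the 6 tested members and for 19 of 59 other named genes checked. This was by the edgeR test of CiADCs-6d against CiADCs-3d, which 28% of all genes tested passed. Some of the 59 were named after their values were seen. Of the pathway genes, DDIT3 (log2 difference 1.23, edgeR adjusted p = 0.00116), PHGDH (0.91, edgeR adjusted p = 0.0396), VLDLR (0.65, edgeR adjusted p = 0.0333), PC (0.45, edgeR adjusted p = 0.0119), ATF4 (0.34, edgeR adjusted p = 0.025) and ENO2 (1.53, edgeR adjusted p = 0.000158) were higher in CiADCs-6d. ENO3 (-1.19, edgeR adjusted p = 0.000165), AQP1 (-1.15, edgeR adjusted p = 0.0188), ENO1 (-0.41, edgeR adjusted p = 0.00913) and GAPDH (-0.37, edgeR adjusted p = 0.0183) were lower. Of the marker genes, CD163 (1.92, edgeR adjusted p = 0.000641) and KRT5 (1.08, edgeR adjusted p = 0.00872) were higher in CiADCs-6d. Lower were FABP4 (-2.61, edgeR adjusted p = 0.00223), APOA1 (-1.61, edgeR adjusted p = 0.000145), COL1A1 (-1.16, edgeR adjusted p = 0.000791), LPL (-1.13, edgeR adjusted p = 0.00108), PPARG (-1.05, edgeR adjusted p = 0.00497), VWF (-0.59, edgeR adjusted p = 0.0431) and CDH1 (-0.58, edgeR adjusted p = 0.00365).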

How the results depend on the processing

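The counts of members past the test against BEFs stayed within 1.5 times under every alternative run on both days. The count past the test between CiADCs-6d and CiADCs-3d was 0, and 0 to 2 with each sample left out in turn, being 1 without BEFs replicate 3 (GK) and 2 without CiADCs-3d replicate 1 (PCK2 and GK), and 2 with the CiADCs libraries numbered 1 left out on both days. The cause was not tested. Of 374 alternative values of single members, 366 kept their side of the threshold. GPD1L under ACTB scaling and GPD1 on day 6 without BEFs replicate 2 did not, as given above, nor did PCK2 and GK between the days. The sign changed in 9 values, all between the 2 induced days and none of them past the test, the ACTB scaling being the setting for GPD1 (0.30), GPD1L (0.50) and GK (0.09). Directions of all genes and lists are relative to the median gene, which that scaling moves by 0.5 between the days. AQP3 has no value with at least 10 counts in every sample, nor on day 3 with only the 2 groups fitted, since it then fails the filter. The replicate numbers did not pair the samples, with correlations of same-numbered deviations of -0.372 to 0.145, and with the replicate number as a block 6 members passed on each day against BEFs and 0 between the days. The depth limits PCK1, AQP7, AQP3 and LOC538702, whose summed counts per group were at most 46.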

Other observations

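The genes most like each tested member, by Pearson's r of log2 CPM over the 9 samples among 12535 candidates, are given as a description, with no p. All 9 points share 3 groups, so r mostly reflects the difference between BEFs and the induced cells. PCK2 was followed most closely by SCAP (r = 0.9925), the escort protein of the sterol-regulated SREBP factors, and SMIM3 (0.9919). GPD1 was followed by SBNO2 (0.9859) and IGSF9 (0.985), and GPD2 by HELB (0.9955), a DNA helicase, and TXN (0.9954), thioredoxin. GPD1L was followed by MTBP (0.9913) and DSCC1 (0.9911), a subunit of a replication clamp loader. GK was followed by SPINK5 (0.9938), a protease inhibitor of the epidermis, and DBP (0.9894), a clock output transcription factor. AQP3, at a few reads per sample and with 12536 candidates, was followed by GPC3 (0.9867) and PRRX2 (0.9829).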
